A study of Mus musculus with 12 samples.

Results

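The 10 genes described here encode parts of the photoreceptor outer segment and of the matrix around it, and were measured in the mouse retina. They are Prph2, Rom1, Prom1, Cdhr1, Fscn2, Rp1, Rp1l1, Tulp1, Impg1 and Impg2. They were chosen by gene symbol for the role of their products, with earlier results of these data known. All 10 were found among the 37991 genes of the expression tables, and all 10 were tested in each comparison. The libraries came from whole retinas of male mice aged 8 weeks, each library being a pool of 6 to 8 retinas, and there were 3 libraries in each of 4 groups. The F0 groups were inbred mice of C57BL/6J, the strain of the reference genome, and of Cast/EiJ, a strain derived from wild mice. The F1 groups were their hybrids in both directions. In F1 B6xCast the father was C57BL/6J and the mother Cast/EiJ, and in F1 CastxB6 these roles were exchanged. No group carried a transgene or received a treatment. F0 libraries were read on 1 lane and F1 libraries on 2 lanes, so generation and lane number cannot be told apart in any comparison of F0 with F1 levels.

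The outer segment is the light-sensing cilium of rods and cones, filled with a stack of membrane discs that is renewed at its base and shed at its tip. Tetraspanins hold the sharply curved rims of the discs, cadherin and prominin proteins act where new discs form, microtubule and actin proteins shape the axoneme and the disc edge, and proteins made in the inner segment are carried through the connecting cilium. The interphotoreceptor matrix is the proteoglycan-rich space between the photoreceptors and the retinal pigment epithelium. Mutations in many of these genes cause inherited retinal degeneration.

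The question put to each gene was whether its transcript level differed between the strains, and whether the alleles of a hybrid, which share the same cells, differed in the same way. Expression was read in 3 ways. Count equivalents are the authors' normalized estimate of the read pairs from a gene, FPKM is the exponential of the deposited log expression and is scaled per transcript length, and unique hits are whole read pairs that map to 1 gene only and, in the F1 libraries, to 1 allele only. In the F1 libraries each allele has its own column, scaled by the authors to about the same total as an F0 library, so an allele with the parental activity has about the parental value. Libraries held 8158534 to 12363291 unique hits. Replicate libraries of a group all differed by more than counting noise, and in F0 C57BL/6J, F0 Cast/EiJ and F1 B6xCast the library numbered 1 stood farther from the other replicates than those did from each other. The chi-square of unique hits per degree of freedom was 5.66 to 9.98 for pairs with such a library and 1.89 to 3.05 for the pairs without it. Counts of called members without these 3 libraries are given with the differences between F0 strains, between F1 alleles, and of F0 from F1, and not with the reciprocal crosses. Nothing in the labels says more of how replicates were separated than that each was a pool of its own, and the p-values measure the spread between these pools.

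Rods dominated the libraries. The 9 rod markers, rhodopsin included, summed to 16877 to 17250 FPKM in F0 C57BL/6J and 18481 to 19271 FPKM in F0 Cast/EiJ. The 7 cone markers summed to 529.7 to 588.6 FPKM and 402.3 to 432.9 FPKM in the same groups. The 8 markers of retinal pigment epithelium summed to only 12.6 to 14.4 FPKM in F0 C57BL/6J and 4.75 to 6.00 FPKM in F0 Cast/EiJ, and the visual cycle enzyme gene Rpe65 itself lay between 0.267 and 0.712 FPKM in the F0 libraries, with no marker of that list at 0. In the F0 comparison described below, which called 33.8% of all genes tested, 3 of 9 rod markers were called and all 3 were higher in Cast/EiJ (on unique hits 3 were higher and 1 lower), 2 of 5 tested cone markers were called and both were lower, 4 of 6 ganglion cell markers were called and all 4 were lower, and 3 of 7 tested pigment epithelium markers were called and all 3 were lower. Of the remaining lists, 3 of 6 amacrine cell markers were called (all higher), 2 of 7 bipolar cell markers (1 higher, 1 lower), 1 of 4 horizontal cell markers (lower), 3 of 6 Mueller glia markers (1 higher, 2 lower), 0 of 3 tested lens markers and 1 of 2 tested blood markers (lower). On unique hits, which called 37.9% of all genes tested, 4 of 7 bipolar cell markers were called (1 higher, 3 lower) and 3 of 5 tested cone markers (all lower). What part these markers have in the strain differences of the 10 genes was not tested. In whole retina, fewer cells of a type and less RNA per cell cannot be told apart.

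All 10 genes were well expressed. Mean FPKM over the 12 libraries ran from 55.8 for Fscn2 to 1282 for Prph2, a 23.0-fold range, and the genes took ranks 8 to 747 among 34964 autosomal genes. The highest were the disc rim tetraspanins, Prph2 with 1282 ± 63.6 FPKM (SD, n = 12) and Rom1 with 1089 ± 79.9 FPKM (SD, n = 12). Their ranges overlapped, and Prph2 exceeded Rom1 in 11 of 12 libraries. Tulp1 followed with 479 ± 38.9 FPKM (SD, n = 12), clear of both neighbours in the order. Cdhr1 with 248 ± 20.7 FPKM and Rp1 with 228 ± 11.5 FPKM (SD, n = 12 each) had overlapping ranges, although Cdhr1 was higher within each of the 12 libraries. Prom1 with 155 ± 8.47 FPKM and Rp1l1 with 111 ± 7.61 FPKM (SD, n = 12 each) were separated from each other and from the genes on either side. At the low end Impg1 with 77.3 ± 8.94 FPKM, Impg2 with 66.1 ± 16.3 FPKM and Fscn2 with 55.8 ± 5.69 FPKM (SD, n = 12 each) overlapped, and their order depended on the strain. The coefficient of variation over libraries was 24.7% for Impg2 and 11.6% for Impg1, against 4.96% to 10.2% for the other 8 genes.

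**Figure D1:**
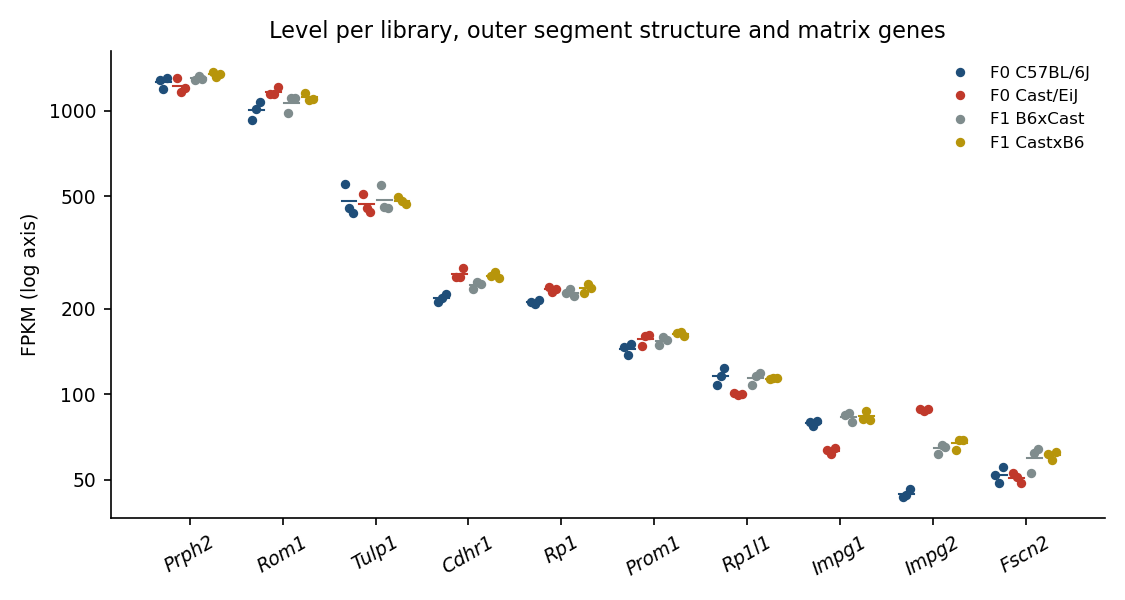
FPKM on a log axis for each gene, with 1 point per library, a short line at the mean of the 3 libraries of a group, and the mean of both alleles for F1 libraries. Prph2 and Rom1 lie highest, and Impg2 is the gene whose groups stand farthest apart, with F0 C57BL/6J at 43.5 to 46.4 and F0 Cast/EiJ at 87.6 to 88.8.

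Between the F0 strains, 3 of the 10 genes differed, against 33.8% of the 14452 autosomal genes tested. Cast/EiJ retinas had more Impg2 and Cdhr1 transcript and less Impg1 transcript than C57BL/6J retinas, and the remaining 7 genes did not pass the test. The median log2 difference of the 10 genes was 0.07, and that of all genes tested was 0.03. Count equivalents plus 1 were tested on the log2 scale with limma, with Benjamini-Hochberg adjustment over all genes tested and calls at an adjusted p under 0.05. On unique hits, tested with edgeR's quasi-likelihood method, the same 3 genes were called, in the same directions, against 37.9% of 13871 genes. Without the 3 libraries that stood apart these 3 genes were again called.

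Between the alleles of the F1 hybrids, 9 of the 10 genes differed, against 47.0% of the 13414 genes tested. The Cast/EiJ allele was higher for Impg2, Fscn2, Cdhr1, Rom1 and Rp1 and lower for Prom1, Tulp1, Impg1 and Rp1l1, and Prph2 did not pass. The SEs of the 10 genes were 0.03 to 0.06, below the 0.08 median of all genes tested, so smaller differences could pass. Most of these differences were small. The median absolute log2 difference of the 10 genes was 0.15, below the 0.20 of all genes tested, and only Impg2 and Fscn2 exceeded 0.25. On unique hits 9 genes were also called, against 55.8% of genes, but there Prph2 was called and Tulp1 was not. The unique hits leaned toward C57BL/6J over all genes, with a median log2 difference of -0.03 and 4221 genes called lower against 3269 higher for Cast/EiJ, so an even share of hits is not exactly the value of no change. Without the 3 libraries that stood apart, 9 genes were called on count equivalents. Over 24 alternatives the count ran from 7, on the deposited log expression, to 10, with the library as a fixed block. Of all genes, 5392 to 7490 were called over those alternatives.

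**Figure D2:**
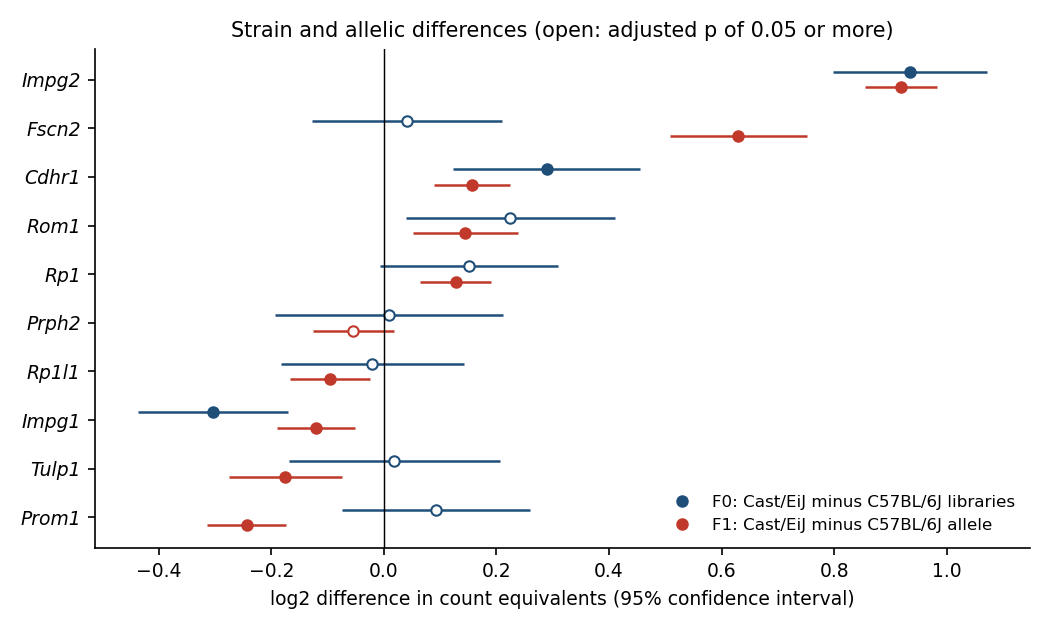
Log2 difference in count equivalents for each gene, Cast/EiJ minus C57BL/6J, between F0 libraries (blue, 3 against 3) and between F1 alleles (red, 6 libraries), with 95% confidence intervals from limma and filled points for an adjusted p under 0.05. Impg2 has nearly the same value in both, while the F0 and F1 intervals of Fscn2 and of Prom1 do not overlap.

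Impg1 and Impg2 encode the related proteoglycans of the interphotoreceptor matrix, and the strains differed in both, in opposite directions. Impg2 lies on chromosome 16 at 56204426 to 56273869 of NCBI37, on the plus strand, with 20 exons in its longest annotated transcript. Impg1 lies on chromosome 9 at 80161137 to 80359045, on the minus strand, with 17 exons. Their promoter windows are shown because these genes and Fscn2 carried the largest or the opposed differences. Each window runs from 250 bases before to 50 bases after the RefSeq start, was found once in the NCBI37 genome by exact match, and is the C57BL/6J reference sequence, written 5′ to 3′ on the strand of the gene. Capitals mark TAATC or its reverse complement GATTA, the first letters of TAATCC, a site preferred by the photoreceptor homeodomain factor CRX. The windows are chr16:56204176-56204475 for Impg2, chr9:80358996-80359295 for Impg1 and chr11:120222598-120222897 for Fscn2.
Impg2: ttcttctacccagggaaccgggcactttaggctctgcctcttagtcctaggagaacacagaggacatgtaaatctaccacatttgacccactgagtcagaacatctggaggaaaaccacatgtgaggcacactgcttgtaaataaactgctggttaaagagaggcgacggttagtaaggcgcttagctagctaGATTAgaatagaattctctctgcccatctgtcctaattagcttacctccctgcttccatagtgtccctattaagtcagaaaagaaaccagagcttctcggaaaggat
Impg1: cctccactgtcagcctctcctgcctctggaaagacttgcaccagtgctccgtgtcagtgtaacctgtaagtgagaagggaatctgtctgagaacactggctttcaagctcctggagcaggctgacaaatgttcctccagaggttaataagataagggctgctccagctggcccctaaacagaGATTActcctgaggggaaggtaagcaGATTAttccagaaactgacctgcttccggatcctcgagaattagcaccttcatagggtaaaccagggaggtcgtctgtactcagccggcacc
Fscn2: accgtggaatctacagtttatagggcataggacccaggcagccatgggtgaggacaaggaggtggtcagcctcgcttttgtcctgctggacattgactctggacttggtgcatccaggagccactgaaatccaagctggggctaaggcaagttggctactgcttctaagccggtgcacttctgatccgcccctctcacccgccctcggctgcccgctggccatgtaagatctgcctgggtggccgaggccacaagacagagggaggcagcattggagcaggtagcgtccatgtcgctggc
The Impg2 window held 1 such match, starting 57 bases before the start, the Impg1 window held 2, starting 68 and 42 bases before the start, and the Fscn2 window held none. RefSeq promoter entries were matched for 8 of the 10 genes, with 9 windows since Prom1 has 2 start sites. TAATC, searched on both strands, was in 5 of the 9 windows and in 22% of all 32851 promoter windows, and the longer TAATCC, which contains it, was in 0 of the 9 and in 7.06% of all. These are matches of letters in the reference strain only, and the Cast/EiJ sequence was not used here.

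Impg2 had 5230, 5070 and 5390 count equivalents in the F0 C57BL/6J libraries and 10000, 9990 and 10000 in the F0 Cast/EiJ libraries. The groups were far apart, and the difference was 0.93 on the log2 scale (SE 0.06, adjusted p = 6.21e-06 with limma), a 1.91-fold higher level in Cast/EiJ. In the 6 F1 libraries the C57BL/6J allele ran from 5070 to 5660 count equivalents, with a median of 5205, and the Cast/EiJ allele from 9630 to 10300, with a median of 10025. The alleles thus stood at the level of their parental strain, and they did not overlap in any library. The allelic difference was 0.92 (SE 0.03, adjusted p = 2.43e-13 with limma), or 1.89-fold. The F0 difference minus the F1 difference was 0.02, with a 95% confidence interval from -0.10 to 0.13. Of the unique hits that told the alleles apart, 63.6% to 65.9% per F1 library were from Cast/EiJ, on 7347 to 10837 hits per library.

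Impg1 had 5170, 5070 and 5220 count equivalents in F0 C57BL/6J and 4170, 4080 and 4280 in F0 Cast/EiJ. The F0 groups did not overlap, and Cast/EiJ fell by 0.30 on the log2 scale (SE 0.06, adjusted p = 0.00455 with limma), to 0.81 of the C57BL/6J level. In the F1 libraries the C57BL/6J allele ran from 5290 to 5890 with a median of 5525, and the Cast/EiJ allele from 4820 to 5280 with a median of 5110. The Cast/EiJ allele was lower within each of the 6 libraries, by 0.12 on average (log2 difference -0.12, SE 0.03, adjusted p = 0.00564 with limma). Both alleles in the hybrids were above the F0 libraries of their strain. The F0 difference minus the F1 difference was -0.18, and its 95% confidence interval ran from -0.31 to -0.06. That test gave an adjusted p of 0.0508 with limma, with a range of 0.0405 to 0.118 over the 18 alternatives, 4 of which called it.

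Per length, the order of the matrix genes was exchanged between the strains. The ratio of Impg1 to Impg2 in FPKM was 1.78 ± 0.05 in F0 C57BL/6J and 0.716 ± 0.013 in F0 Cast/EiJ (SD, n = 3 each). It was 1.29 ± 0.07 in F1 B6xCast and 1.25 ± 0.06 in F1 CastxB6 (SD, n = 3 each), between the parental values in each of the 6 hybrid libraries.

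**Figure D3:**
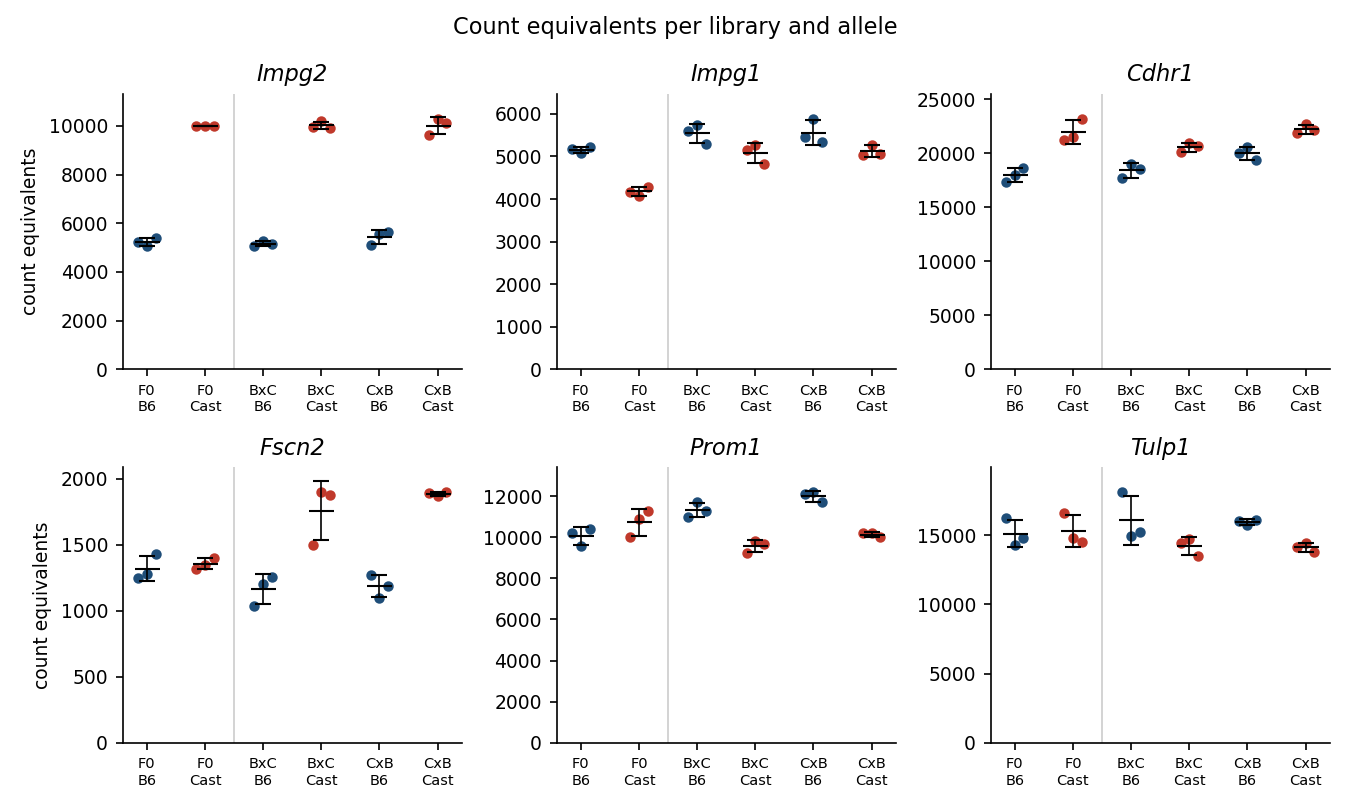
Count equivalents from 0 on a linear axis for 6 genes, with 1 point per library, the mean and the SD of 3 libraries, C57BL/6J or its allele in blue and Cast/EiJ or its allele in red (BxC is F1 B6xCast, CxB is F1 CastxB6). Impg2 alleles keep the parental levels, the Fscn2 alleles separate in the hybrids while the F0 groups lie together at 1250 to 1430, and the Prom1 alleles order opposite to the F0 means.

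Prph2 and Rom1 encode the tetraspanins that join to form the disc rim. Prph2 (chromosome 17, 47047408 to 47061882, plus strand, 3 exons) had 60900, 56500 and 62000 count equivalents in F0 C57BL/6J and 63800, 57500 and 59300 in F0 Cast/EiJ. The groups overlapped almost fully, with a log2 difference of 0.01 and a 95% confidence interval from -0.19 to 0.21. Its F1 alleles were also close, from 61400 to 65600 for C57BL/6J and from 59500 to 62600 for Cast/EiJ. The log2 difference of -0.05 (SE 0.03, adjusted p = 0.203 with limma) did not pass. The Cast/EiJ allele was nonetheless lower within each of the 6 libraries, with 48.2% to 48.7% of 86100 to 123844 unique hits. The edgeR test on these hits gave a log2 difference of -0.09 and an adjusted p of 3.52e-20, and a fit to the F1 libraries alone with the library as a fixed block gave an adjusted p of 0.00109 on count equivalents with limma. Prph2 had the most allele-specific hits of the 10 genes, 639885 in all, so that small differences could be resolved there. Its difference on hits was not tested against the lean of all genes toward C57BL/6J (median -0.03). On hits the median log2 difference was -0.085 for the 9 rod markers and -0.084 for the 16 tested partner genes listed below.

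Rom1 (chromosome 19, 9001872 to 9003846, minus strand, 3 exons) had 25500, 27900 and 29200 count equivalents in F0 C57BL/6J and 31200, 31700 and 33500 in F0 Cast/EiJ. The groups did not overlap, yet the log2 difference of 0.22 (SE 0.08) missed the threshold with an adjusted p of 0.0629 with limma. It was called by DESeq2 on rounded count equivalents, with an adjusted p of 0.0436. With the replicate number as a block, a pairing that the labels do not give, the adjusted p was 0.00899 (limma). Under the other 16 of 18 alternatives it was not called, with an adjusted p of 0.311 (limma) on the deposited log expression. The F1 alleles ran from 23900 to 29900 for C57BL/6J and from 28900 to 32200 for Cast/EiJ, and the Cast/EiJ allele was higher within each library. The allelic difference was 0.14 (SE 0.04, adjusted p = 0.0122 with limma). On the deposited log expression the difference was 0.15 and the adjusted p 0.0674. Few read pairs separated the Rom1 alleles, 9.91 unique hits per 100 count equivalents in F1 against 78.5 in F0. The Cast/EiJ share of these hits was 54.3% in F1 B6xCast replicate 1 (95% Wilson interval 53.0% to 55.5%), and 51.4% to 51.7% in the other 5 libraries. Without that library the allelic difference was 0.12.

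Prom1 and Cdhr1 encode membrane proteins of the sites where discs form, prominin at the edges of the growing discs and a photoreceptor cadherin at the base of the outer segment. Prom1 (chromosome 5, 44384864 to 44493271, minus strand, 28 exons) had 10200, 9570 and 10400 count equivalents in F0 C57BL/6J and 10000, 10900 and 11300 in F0 Cast/EiJ. The groups overlapped and the log2 difference of 0.09 (SE 0.07, adjusted p = 0.359 with limma) did not pass. In the hybrids the C57BL/6J allele ran from 11000 to 12200 and the Cast/EiJ allele from 9230 to 10200, with no overlap. The Cast/EiJ allele fell by 0.24 on the log2 scale (SE 0.03, adjusted p = 1.35e-05 with limma) and held 45.0% to 45.7% of the unique hits in the 6 libraries. The F0 difference exceeded the F1 difference by 0.34 (SE 0.06, adjusted p = 0.00127 with limma). Such a difference between F0 and F1 was called for 2 of the 10 genes, Prom1 and Fscn2, against 14.0% of genes tested, and for the same number of members without the 3 libraries that stood apart. A predicted gene on the opposite strand, Gm16401, overlaps Prom1 over 1591 bases, with a mean of 144 count equivalents against 10638 for Prom1. This is an overlap of gene spans, and whether exons overlap was not examined. The libraries did not keep strand, so strand could not separate reads of any shared exon. Prom1 had 78.3 unique hits per 100 count equivalents in F0, and the 10 genes ran from 75.7 to 79.7.

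Cdhr1 (chromosome 14, 37891036 to 37911497, minus strand, 17 exons) had 17300, 18000 and 18600 count equivalents in F0 C57BL/6J and 21200, 21500 and 23200 in F0 Cast/EiJ. The groups did not overlap, and the difference was 0.29 (SE 0.07, adjusted p = 0.0152 with limma), or 1.22-fold. This call was lost without F0 C57BL/6J replicate 2 (adjusted p = 0.0545 with limma), without F0 Cast/EiJ replicate 3 (adjusted p = 0.0648 with limma) and when no filter on low genes was used (adjusted p = 0.349 with limma), while the difference stayed between 0.25 and 0.31 under all alternatives. The F1 alleles ran from 17700 to 20600 for C57BL/6J and from 20100 to 22700 for Cast/EiJ. These ranges overlapped across libraries, but within each library the Cast/EiJ allele was higher. The allelic difference was 0.16 (SE 0.03, adjusted p = 0.000644 with limma), and the F0 minus F1 difference of 0.13 had an adjusted p of 0.144 with limma.

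Fscn2 encodes the retinal fascin, which bundles actin filaments, and had the lowest mean FPKM of the 10 genes over the 12 libraries, although Impg2 was lower in F0 C57BL/6J. It lies on chromosome 11 at 120222848 to 120229482, on the plus strand, with 5 exons. It had 1250, 1280 and 1430 count equivalents in F0 C57BL/6J and 1320, 1350 and 1400 in F0 Cast/EiJ, values that overlapped, with a log2 difference of 0.04 and a 95% confidence interval from -0.13 to 0.21. In the hybrids the C57BL/6J allele ran from 1040 to 1270 with a median of 1195, and the Cast/EiJ allele from 1500 to 1900 with a median of 1885. The alleles did not overlap, with the Cast/EiJ allele above each F0 library and the C57BL/6J allele below the lowest F0 library in 4 of the 6 hybrids. In FPKM the Cast/EiJ allele was again above the F0 libraries, at 58.8 to 72.3 against 48.7 to 55.3, but the C57BL/6J allele, at 51.3 ± 4.13 FPKM (SD, n = 6), was level with F0 C57BL/6J, at 51.9 ± 3.23 FPKM (SD, n = 3). The count equivalents per FPKM were 14.8% higher for the Cast/EiJ than for the C57BL/6J allele of Fscn2, and 5.27% higher in Cast/EiJ in F0. The allelic difference was 0.63 (SE 0.06, adjusted p = 1.14e-07 with limma), or 1.55-fold, and 58.4% to 62.6% of the 950 to 1615 unique hits per library were from Cast/EiJ. The F0 difference was lower than the F1 difference by 0.59 on the log2 scale (difference -0.59, SE 0.10, adjusted p = 0.00112 with limma). On the deposited log expression the F1 difference was 0.43 and the F0 minus F1 difference -0.46, and both were still called. The lowest value of either allele was in F1 B6xCast replicate 1, and without that library the F0 minus F1 difference was -0.60.

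Rp1 and Rp1l1 encode related doublecortin-domain proteins of the axoneme microtubules. Rp1 (chromosome 1, 4334224 to 4350473, minus strand, 4 exons) had 27300, 26700 and 27500 count equivalents in F0 C57BL/6J and 30400, 29700 and 30400 in F0 Cast/EiJ. The groups did not overlap, but the log2 difference of 0.15 (SE 0.07, adjusted p = 0.126 with limma) did not pass. It was called with the replicate number as a block (adjusted p = 0.0369 with limma) and on the deposited log expression weighted by its posterior SD (adjusted p = 0.00691 with limma). Under the other 16 of 18 alternatives it was not called, with an adjusted p of 0.189 (limma) on the deposited log expression without weights. The F1 alleles ran from 26700 to 29800 for C57BL/6J and from 29600 to 31700 for Cast/EiJ. Within each library the Cast/EiJ allele was higher, by 0.13 (SE 0.03, adjusted p = 0.00211 with limma), close in size to the F0 difference. Its share of unique hits was 51.0% to 52.0%.

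Rp1l1 (chromosome 14, 64611268 to 64653859, plus strand, 4 exons) had 11900, 12800 and 13600 count equivalents in F0 C57BL/6J and 12600, 12500 and 12600 in F0 Cast/EiJ. The Cast/EiJ values lay inside the C57BL/6J range, with a log2 difference of -0.02 and a 95% confidence interval from -0.18 to 0.14. The F1 alleles ran from 12500 to 13700 for C57BL/6J and from 12000 to 12800 for Cast/EiJ, and the Cast/EiJ allele was lower within each library (log2 difference -0.10, SE 0.03, adjusted p = 0.0284 with limma). This call was lost without any of 5 F1 libraries, with adjusted p-values of 0.102 and 0.061 without F1 B6xCast replicates 2 and 3, and of 0.0796, 0.0589 and 0.0975 without F1 CastxB6 replicates 1, 2 and 3 (limma). The edgeR test on unique hits called it, with a log2 difference of -0.12 and an adjusted p of 3.77e-18. The size of the Rp1l1 difference depended on the measure. On the deposited log expression its allelic difference was -0.28 (adjusted p = 3.6e-05 with limma) and its F0 difference -0.20 (adjusted p = 0.0926 with limma). The count equivalents per FPKM were 13.4% higher in Cast/EiJ than in C57BL/6J in F0 and 13.3% higher for the Cast/EiJ allele in F1, where the medians over the genes tested were 0.38% and 0.03%. Per length, Rp1 was above Rp1l1 in every library, with ratios in FPKM of 1.84 ± 0.12 in F0 C57BL/6J and 2.34 ± 0.02 in F0 Cast/EiJ (SD, n = 3 each).

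Tulp1 encodes a tubby-like protein needed for transport toward the outer segment. It lies on chromosome 17 at 28488460 to 28502127, on the minus strand, and has 12 annotated transcripts. It had 16200, 14300 and 14800 count equivalents in F0 C57BL/6J and 16600, 14800 and 14500 in F0 Cast/EiJ, with the library numbered 1 highest in both, and a log2 difference of 0.02 with a 95% confidence interval from -0.17 to 0.21. In the hybrids the C57BL/6J allele ran from 14900 to 18100 and the Cast/EiJ allele from 13500 to 14700. The Cast/EiJ allele was lower within each library, by 0.17 in the fit (log2 difference -0.17, SE 0.05, adjusted p = 0.00598 with limma). Unique hits did not show this. They were 4047 for C57BL/6J and 4083 for Cast/EiJ in F1 B6xCast replicate 1, where the count equivalents were 18100 and 14400, and the Cast/EiJ share over the 6 libraries ran from 49.1% to 51.0%, each 95% Wilson interval including 50%. The log2 difference on unique hits was 0.01 (adjusted p = 0.622 with edgeR), opposite in sign, and on the deposited log expression it was -0.03 (adjusted p = 0.748 with limma). Allele-specific hits were few for Tulp1, 23.1 per 100 count equivalents in F1 against 78.4 in F0. Its allelic difference is therefore given here as a value of the count equivalents alone.

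**Figure D4:**
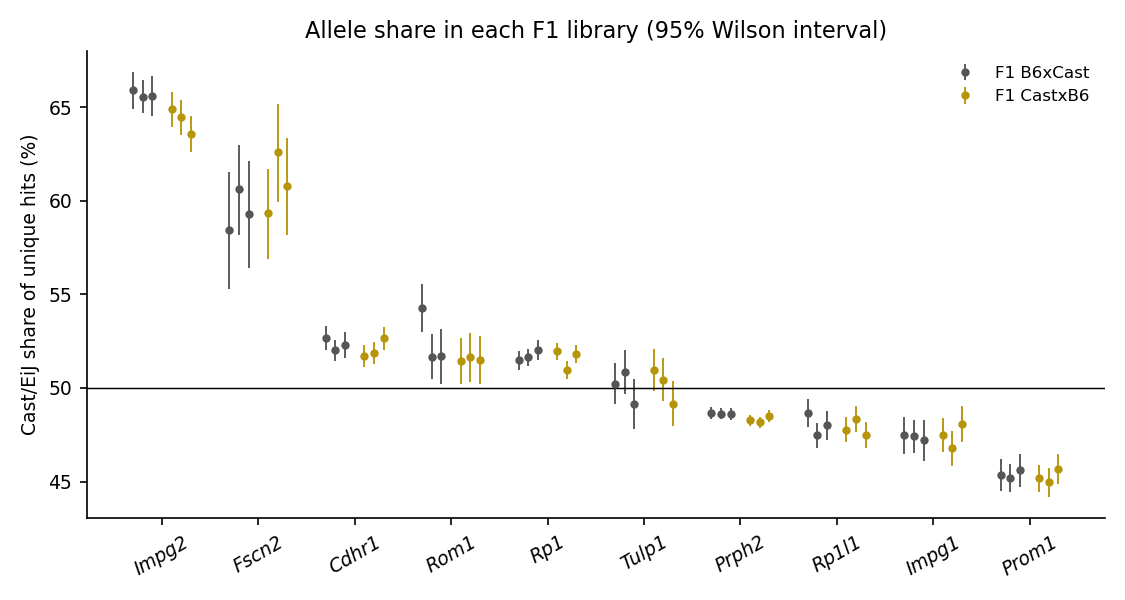
Share of allele-specific unique hits from Cast/EiJ, in percent, for each of the 6 F1 libraries of both crosses, with 95% Wilson intervals for counting error only and a line at 50%. All 6 libraries lie above the line for Impg2, Fscn2, Cdhr1, Rom1 and Rp1 and below it for Prph2, Rp1l1, Impg1 and Prom1, and the intervals of Tulp1 include it.

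**Figure D5:**
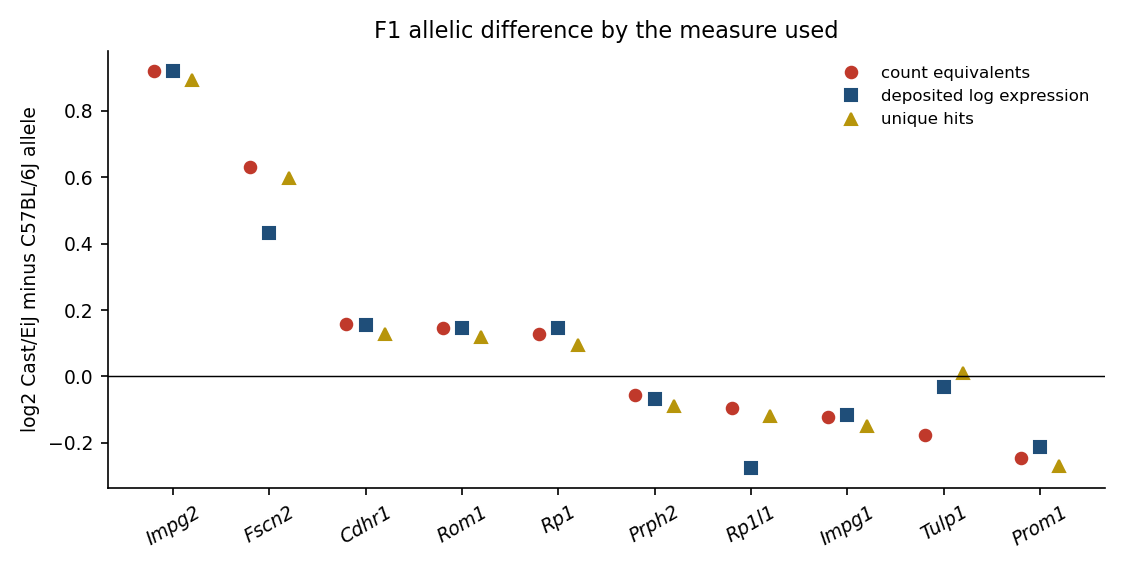
F1 allelic log2 difference, Cast/EiJ minus C57BL/6J allele, of each gene on count equivalents, on the deposited log expression and on unique hits. The measures lie close together for Impg2 (0.92, 0.92 and 0.89) and apart for Fscn2 (0.63, 0.43 and 0.60), Rp1l1 (-0.10, -0.28 and -0.12) and Tulp1 (-0.17, -0.03 and 0.01).

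Between the reciprocal crosses no difference was called for these genes. No member passed for a parent-of-origin difference, the maternal minus the paternal allele, against 0.492% of genes tested. By limma 0 of the 10 genes had an unadjusted p under 0.05 there, and by edgeR on unique hits 0 were called and 1 had an unadjusted p under 0.05. The maternal minus paternal values ran from -0.04 for Fscn2, with a 95% confidence interval from -0.16 to 0.08, to 0.04 for Impg2, with an interval from -0.02 to 0.10. The summed level of both alleles was called for 0 of the 10 genes between F1 CastxB6 and F1 B6xCast by limma, against 0.0401% of genes tested, and for 0 by edgeR on summed unique hits. The largest difference was that of Cdhr1, 0.12 on the log2 scale with an unadjusted p of 0.0308, the only one under 0.05, and an adjusted p of 0.917 with limma, and edgeR gave 0 under 0.05.

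Other genes of the outer segment and its cilium, taken from a list of 17 partners of which 16 were tested, were called at shares near those of all genes in F0. Between the F0 strains 5 of 16 were called, 4 higher and 1 lower in Cast/EiJ, against 33.8% of all genes tested, and between the F1 alleles 9 of 16, 3 higher and 6 lower, against 47.0%. On unique hits 7 were called in F0, 4 higher and 3 lower, and 13 between alleles, 2 higher and 11 lower, where 37.9% and 55.8% of all genes were called. BC027072, the mouse counterpart of a photoreceptor cilium actin regulator, had 6023 ± 631 count equivalents in F0 C57BL/6J and 9957 ± 1100 in F0 Cast/EiJ (SD, n = 3 each), with log2 differences of 0.72 in F0 (adjusted p = 0.000783 with limma) and 0.75 between alleles (adjusted p = 1.79e-08 with limma). Rpgrip1, which anchors proteins in the connecting cilium, was lower in Cast/EiJ by 0.71 in F0 (log2 difference -0.71, adjusted p = 0.000536 with limma) and by 0.67 between alleles (log2 difference -0.67, adjusted p = 4.1e-08 with limma). Cngb1, the beta subunit of the rod cyclic nucleotide-gated channel, was higher by 0.36 in F0 (adjusted p = 0.00336 with limma) and by 0.29 between alleles (adjusted p = 2.14e-07 with limma). Arl3, a ciliary GTPase, had a log2 difference of -0.18 in F0 that did not pass (adjusted p = 0.25 with limma) and fell by 0.68 between alleles (log2 difference -0.68, adjusted p = 4.73e-07 with limma).

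Of 16 other genes of the retinal matrix, 14 were tested. In F0, 3 were called, 2 higher and 1 lower in Cast/EiJ, and between the F1 alleles 10 were called, 7 higher and 3 lower, where 33.8% and 47.0% of all genes were called. On unique hits 6 were called in F0, 2 higher and 4 lower, and 11 between alleles, 6 higher and 5 lower. The shares of all genes called on that measure were 37.9% and 55.8%. The hyaluronan receptor gene Cd44 was higher by 0.82 in F0 (adjusted p = 0.0064 with limma) and by 1.02 between alleles (adjusted p = 1.55e-07 with limma). Among the testican proteoglycans, Spock1 was higher by 0.42 in F0 and by 0.33 between alleles (adjusted p = 0.0142 and 0.000292 with limma), while Spock2 fell by 0.54 in F0 (log2 difference -0.54, adjusted p = 0.000344 with limma) and had an allelic difference of 0.06 that did not pass (adjusted p = 0.157 with limma). The link protein gene Hapln1, at only 7.12 to 52.6 count equivalents per allele, was higher by 0.86 between alleles (adjusted p = 0.00934 with limma). Its F0 difference of -0.07 did not pass (adjusted p = 0.855 with limma). Efemp1 and Egflam, which encode fibulin and pikachurin proteins of the matrix, were lower between alleles (log2 differences -0.31 and -0.16, adjusted p = 0.0082 and 0.00427 with limma).

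Of 10 paralogs of the members, 7 were tested. In F0 5 were called, 3 higher and 2 lower in Cast/EiJ, and between alleles 4, 2 higher and 2 lower, beside the same 33.8% and 47.0% of all genes. The 3 higher in F0 include Prom2, which passed the filter only through Cast/EiJ (below). On unique hits 4 of 6 tested were called in F0, 2 higher and 2 lower, and 7 of 7 between alleles, 3 higher and 4 lower. Of all genes, 37.9% and 55.8% were called on that measure. Dcdc2a, a doublecortin-domain relative of Rp1, had 94.3 ± 5.11 count equivalents in F0 C57BL/6J and 327 ± 21.0 in F0 Cast/EiJ (SD, n = 3 each), and log2 differences of 1.78 in F0 (adjusted p = 5.57e-06 with limma) and 1.62 between alleles (adjusted p = 1.15e-11 with limma). Prom2, the relative of Prom1, was called higher in F0 Cast/EiJ (adjusted p = 0.0358 with limma), at 10.4 to 19.8 count equivalents against 0.0543 to 8.48. It passed the filter of 10 count equivalents only through the Cast/EiJ libraries, so this call cannot stand as support for a strain difference. Its allelic difference of 0.43 did not pass (adjusted p = 0.438 with limma). Dclk1 and the tubby relative Tulp4 were lower in F0 (log2 differences -0.33 and -0.27, adjusted p = 0.0097 and 0.0118 with limma) and between alleles (-0.39 and -0.25, adjusted p = 1.74e-07 and 0.00575 with limma), and Tulp3 was higher between alleles (0.34, adjusted p = 0.000446 with limma).

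Across the 12 libraries, the gene whose log2 level followed that of a member most closely, among the 10249 autosomal genes averaging 100 count equivalents or more, was Tex2 for Impg2 (Pearson's r = 0.993), Pebp1 for Rom1 (0.988), Ppih for Impg1 (0.971), Mphosph9 for Tulp1 (0.959), Itgb5 for Cdhr1 (0.959), Tmem127 for Rp1 (0.948), Cog2 for Fscn2 (0.936), Isoc2a for Rp1l1 (0.929), Tprgl for Prom1 (0.922) and Fam19a2 for Prph2 (0.874). No member was the closest gene of another member, and the highest correlation between members was that of Impg2 with Cdhr1 (0.887). The libraries fall into strains and crosses, and the correlations describe that shared grouping and any shared library effects.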

How the data were processed

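Polyadenylated RNA from 12 pools of whole retinas was sequenced by the authors as 101 bp read pairs without strand. The authors trimmed reads with Trim Galore 0.2.6, aligned them with Bowtie 0.12.9 to transcriptomes of the strain or, for F1, of both strains (NCBI37), and used MMSEQ for expression estimates. The authors deposited count equivalents (a normalized signal per gene, rounded to 3 significant digits, each F0 library and each F1 allele scaled alike), log expression on the natural log scale, whose exponential is FPKM, its posterior SD (a score), and unique hits, which are whole read counts. A further deposited table held the authors' own model comparison and imprinting statistics, and it was not used, nor were its 36 columns of per-sample values.

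Count equivalents were tested as log2(value + 1) with limma 3.58.1 in R 4.3.3, so that differences of low genes are understated. The F0 fit held the 6 F0 libraries and autosomal genes that reached 10 count equivalents in 3 or more of them. The F1 allelic, F0 minus F1 and parent-of-origin differences came from a joint fit of F0 libraries and F1 alleles, with the library as a random block (consensus correlation 0.135, statmod 1.5.0), over genes whose allele-specific unique hits averaged 10 or more in F1. The reciprocal crosses were compared on the alleles summed. Unique hits were tested with edgeR 4.0.16 as a second measure, and DESeq2 1.42.0 was an alternative. Benjamini-Hochberg adjustment ran over all genes tested. The scripts were tested on simulated data. Intervals of shares are 95% Wilson intervals and cover counting error only.

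The members and the gene lists were chosen with earlier results of these data known. All 10 members are named in each comparison, and from each wider list at most the 2 largest called differences in each direction in F0 and in F1, to which the value in the other comparison was added in places. Leaving out the 3 libraries that stood apart was an alternative chosen after seeing the data. Promoter windows come from RefSeq and were matched to NCBI37.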

Additional observations from a re-analysis of the deposited data

Results flagged for a closer look

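In F1 B6xCast replicate 1 the Rom1 alleles stood farther apart than in the other 5 hybrid libraries. On the log2 scale the Cast/EiJ allele exceeded the C57BL/6J allele by 0.27 in count equivalents (28900 against 23900) and by 0.25 in unique hits. Its gap to the nearest library, over the range of the 6 libraries, was 0.884 and 0.910, against a critical value of 0.625. Of 20 such groups of 6 values examined, these 2 passed, and chance alone passes about 1 in 20. Each gene entered on 2 measures of the same alleles, and both that passed are Rom1, so they are not 2 separate events. The same library is among the 3 that stood apart over all genes.

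The Prom1 strain difference differed between F0 and F1, by 0.34 on the log2 scale, and so did that of Fscn2, with an F0 minus F1 difference of -0.59. Both were tested directly in the joint limma fit, and both remained called under each of the 18 alternatives run, with values from 0.30 to 0.40 for Prom1 and from -0.63 to -0.46 for Fscn2.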

How the results depend on the processing

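The Impg2 differences kept their direction and their call under all alternatives, from 0.91 to 0.99 in F0 (18 alternatives) and from 0.89 to 0.93 in F1 (24 alternatives), as did those of Impg1 (-0.33 to -0.29 and -0.15 to -0.11). The allelic difference of Tulp1 reversed on unique hits, to 0.0104, and lost its call on the deposited log expression. In F0, the count of members called rose from 3 to 5 with the deposited log expression weighted by its posterior SD (Rp1 and Rp1l1 added) and to 5 with the replicate number as a block (Rom1 and Rp1 added), where 6376 genes were called in all. Without a filter on low genes 3161 genes were called in F0, against 4887, and 2 members, against 3. Between alleles the count ran from 7 members on the deposited log expression, weighted or not, to 10 with the library as a fixed block. Leaving out 1 library at a time gave 2 to 3 members in F0 and 8 to 9 in F1, and 5 to 12 genes in all for the reciprocal cross, the 12 being without F1 B6xCast replicate 1. Apart from that construction (fewer samples, more genes tested), the cause of these changes was not tested.

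The replicate numbers were not taken to pair the samples, since the labels give them no shared origin and the deviations of same-numbered F0 libraries correlated at 0.0628 to 0.234, not all over 0.1. Of 39 pairs over all groups 9 were over 0.1, all 9 among F0 C57BL/6J, F0 Cast/EiJ and F1 B6xCast, with 0.21 to 0.30 for the libraries numbered 1, and 2 of 3 F0 C57BL/6J libraries correlated best with their own number in F0 Cast/EiJ, a hint from the data and not from the design. With the replicate block 9 members were called between alleles, 3 for F0 minus F1 (Impg1 added), 0 for parent of origin and 0 between the crosses. Without the block, 47.0% of all genes tested were called between alleles, 14.0% for F0 minus F1, 0.492% for parent of origin and 0.0401% between the crosses. For F0 minus F1, 1460 to 2032 genes in all were called over the alternatives. Depth limits the allelic values most for Fscn2 (950 hits in the lowest library) and for Rom1 and Tulp1, where few hits told the alleles apart.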
